A study of Mus musculus with 2 samples.

Results

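The tumor epithelial cells described here are the cells that the deposited annotation names epithelial and in which the 13 mitochondrial transcripts made up less than 25% of the unique molecular identifiers (UMIs), each UMI being 1 captured mRNA molecule. They were thus chosen by their mitochondrial share and, through the annotation, by the expression on which the cells were clustered. They numbered 15326 of the 38883 cells in the annotated table, of which 21479 were called epithelial. The library labelled Mir34a_F/F held 9286 of them and the library labelled Mir34a_Mye_KO held 6040. Both libraries came from colitis-associated colon tumors (CACs) of C57BL/6 mice, 6 to 10 weeks old at the start, which received azoxymethane at 10 mg/kg, a carcinogen, before the first and the second of 3 periods of colitis. Dextran sodium sulfate, which injures the colonic lining, was given in the drinking water at 2.5% in the first and second periods and at 2% in the third, each lasting 5 days, and the mice were killed on day 110. Mice of both genotypes carried floxed Mir34a alleles, and the mice labelled Mir34a_Mye_KO also carried LysM-Cre, a Cre recombinase made in macrophages, neutrophils and related myeloid cells. By design the tumor epithelium itself therefore kept Mir34a in both genotypes. Each genotype is 1 library, made from a pool of 6 to 8 tumors of 3 mice, and no map from cells to mice or tumors was used here, although the methods name CellPlex tags for labeling cells. No test between genotypes was therefore made.

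The lining of the colon is a sheet of columnar cells joined by cadherin, claudins and desmosomes and held in shape by keratins. It is renewed from Lgr5-positive stem cells at the crypt base, which depend on Wnt signals, and their offspring become absorptive colonocytes, mucus-secreting goblet cells or hormone-secreting enteroendocrine cells. Colorectal tumors usually keep part of this order while the Wnt pathway is active in many more cells, and an inflamed epithelium adds antimicrobial proteins and acute-phase proteins to its output.

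The microRNA whose gene was deleted in myeloid cells, Mir34a, is shown because the genotype labels rest on it. Its mature form is encoded at chr4:150068473-150068494 on the plus strand (RefSeq, GRCm38.p6), and the capitals mark the seed, bases 2 to 8, which pairs with target mRNAs.
mmu-miR-34a-5p: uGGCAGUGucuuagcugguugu
The deposited table holds extra features for this locus and for Cre. The features for the hairpin, the stem-loop and the mature microRNA, and the one for Cre alone, had 0 UMIs in the epithelial cells of both libraries, as they did in macrophages. They thus say nothing about either library. The primary Mir34a transcript had 173 UMIs, a mean of 0.0225 per 10000, in the epithelial cells of the library labelled Mir34a_F/F and 151, a mean of 0.0313, in those of the library labelled Mir34a_Mye_KO. In macrophages, which are among the myeloid cells LysM-Cre targets, it had 132 UMIs (0.0718 per 10000) in the library labelled Mir34a_F/F and 456 (0.112 per 10000) in the library labelled Mir34a_Mye_KO. A feature that joins Cre with Lyz2, the gene behind LysM, had 450 UMIs in macrophages of the library labelled Mir34a_F/F and 168 in those of the library labelled Mir34a_Mye_KO, and in the epithelial cells 48 and 27. What this joined feature counts is not given in the sources used here, and none of these features settles which library carried the deletion. The libraries are therefore named by their labels throughout. In each pair of values that follows, the first is from the library labelled Mir34a_F/F and the second from the library labelled Mir34a_Mye_KO, unless a library is named.

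A level is the mean over cells of a gene's UMIs per 10000 UMIs of the cell, and a difference between the libraries is the log2 ratio of the level in the library labelled Mir34a_Mye_KO to that in the library labelled Mir34a_F/F. Brackets hold 95% intervals, which cover counting error only, since tumors and mice were pooled. The epithelial cells held 85752486 and 54298996 UMIs in all, with medians of 6431 and 6571 UMIs per cell. In other cell types the library labelled Mir34a_Mye_KO was the deeper one, with medians of 3544 and 8007.5 UMIs in T cells. Epithelial cells with fewer than 2000 UMIs made up 11.1% in the library labelled Mir34a_F/F and 26.1% in the library labelled Mir34a_Mye_KO, so main differences between the libraries are also given for epithelial cells with at least 2000 UMIs, the deeper cells. The 2 libraries shared 96 cell barcodes, and 84 of the epithelial cells carried one of them.

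The mitochondrial limit kept a larger share of the annotated epithelial cells in one library than in the other. It kept 80.0% (79.2 to 80.7) in the library labelled Mir34a_F/F and 61.2% (60.3 to 62.2) in the library labelled Mir34a_Mye_KO, by exact binomial intervals. Since the limit defines these cells, the shares are a description. The values on either side of it were close to each other. Cells with 24 to 25% mitochondrial UMIs, 125 and 150 in number, had Epcam levels of 13.5 and 14.0. Cells just outside, with 25 to 26%, numbered 123 and 162 and had Epcam levels of 13.4 and 13.7. Over their whole range, the 2328 and 3825 excluded cells had median mitochondrial shares of 38.6% and 41.8%.

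Within the limit, depth moved with mitochondrial share, differently in the libraries and not in one direction throughout. In the library labelled Mir34a_F/F, cells with under 5% mitochondrial UMIs had a median of 7377 UMIs and those with 20 to 25% a median of 5238. In the library labelled Mir34a_Mye_KO, the same classes had medians of 2293 and 12076 UMIs. In narrower classes, cells with under 2.5% had a median of 4902.5 UMIs in the library labelled Mir34a_F/F and 5336.5 in the library labelled Mir34a_Mye_KO, and those with 2.5 to 5% had 9914 and 1845. Cells with fewer than 2000 UMIs had a lower median mitochondrial share than deeper cells in both libraries, at 2.53% against 8.96% and at 4.72% against 11.3%. Shallow cells of both libraries held fewer Epcam transcripts and more of plasma cell genes. Not all epithelial genes were lower in them. Defensin and Paneth cell genes summed to 29.3 in shallow and 19.4 in deeper cells of the library labelled Mir34a_F/F, and to 22.9 and 16.1 in the library labelled Mir34a_Mye_KO. Goblet cell genes summed to 42.8 and 38.5 in the library labelled Mir34a_F/F, but went the other way in the library labelled Mir34a_Mye_KO, at 35.6 and 38.5. Epcam was at 9.78 in cells with fewer than 2000 UMIs and 16 in deeper ones in the library labelled Mir34a_F/F, and at 8.42 and 14.1 in the library labelled Mir34a_Mye_KO. Igkc, the kappa chain of antibodies, was at 33.2 and 10.6, and at 106 and 32.3. In the library labelled Mir34a_Mye_KO, Epcam was at 9.76 in cells with under 5% mitochondrial UMIs and at 15.1 in those with 20 to 25%, and Igkc at 67.2 and 23.7. In the library labelled Mir34a_F/F, Igkc was at 16.0 and 11.4 in these classes and Epcam at 14.2 and 13.8.

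**Figure D1:**
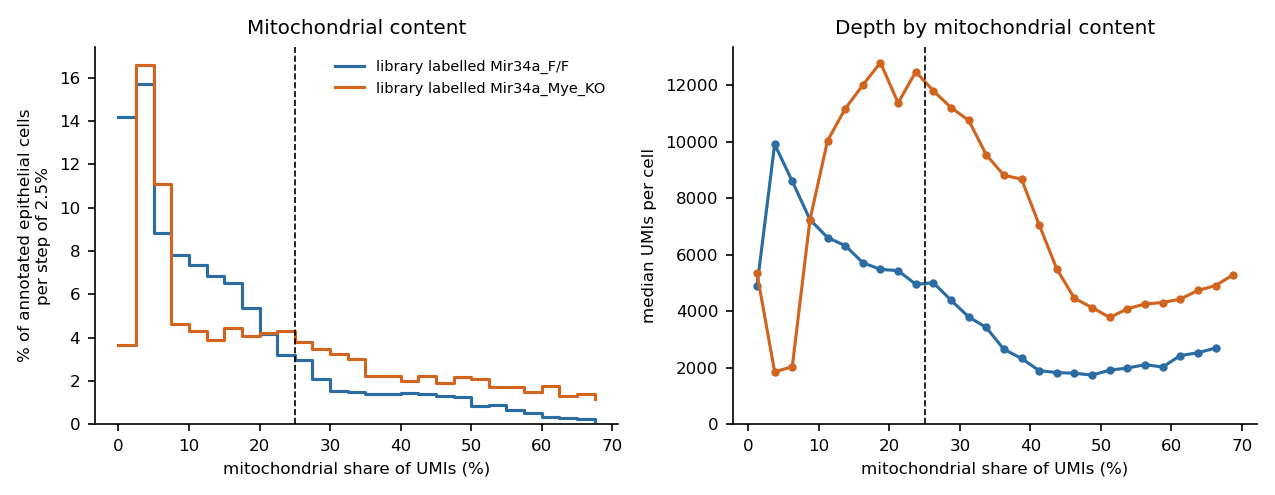
Mitochondrial share and depth of the annotated epithelial cells in the 2 libraries, with the 25% limit drawn in. Cells are drawn in steps of 2.5%. Within the limit the median number of UMIs per cell in these steps ran from 4902.5 to 9914 in the library labelled Mir34a_F/F. In the library labelled Mir34a_Mye_KO it ran from 1845 to 12809.

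The epithelial label was matched by the markers of these cells. Epcam, an adhesion molecule of epithelia, was at 15.3 and 12.6 in these cells and at 4.28 and 2.77 in T cells. Cdh1, which encodes E-cadherin, was at 5.89 and 5.17, and the keratin Krt8 was at 29.0 and 19.7. Cldn7, a claudin of the lateral membrane, was at 15.1 and 9.70. Each of the 4 markers was higher in the epithelial cells than in any of the 10 other annotated cell types, in both libraries, when those types were held to the same mitochondrial limit. Epcam exceeded the highest other type, erythroid cells, 2.36-fold and 2.69-fold, and Krt8 did so 1.49-fold and 1.27-fold. Erythroid cells numbered only 102 and 25 and were shallow, with medians of 1740 and 2147 UMIs. Against T cells, B cells, macrophages, neutrophils, mast cells and dendritic cells, the 6 types with at least 300 cells in each library, the lowest ratio of Krt8 was 2.57-fold and 3.28-fold. Epithelial transcripts were thus counted in every cell type of both libraries, and their levels in T cells are given beside the results as the background. For genes that T cells express themselves, the T cell level is not a background.

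**Figure D2:**
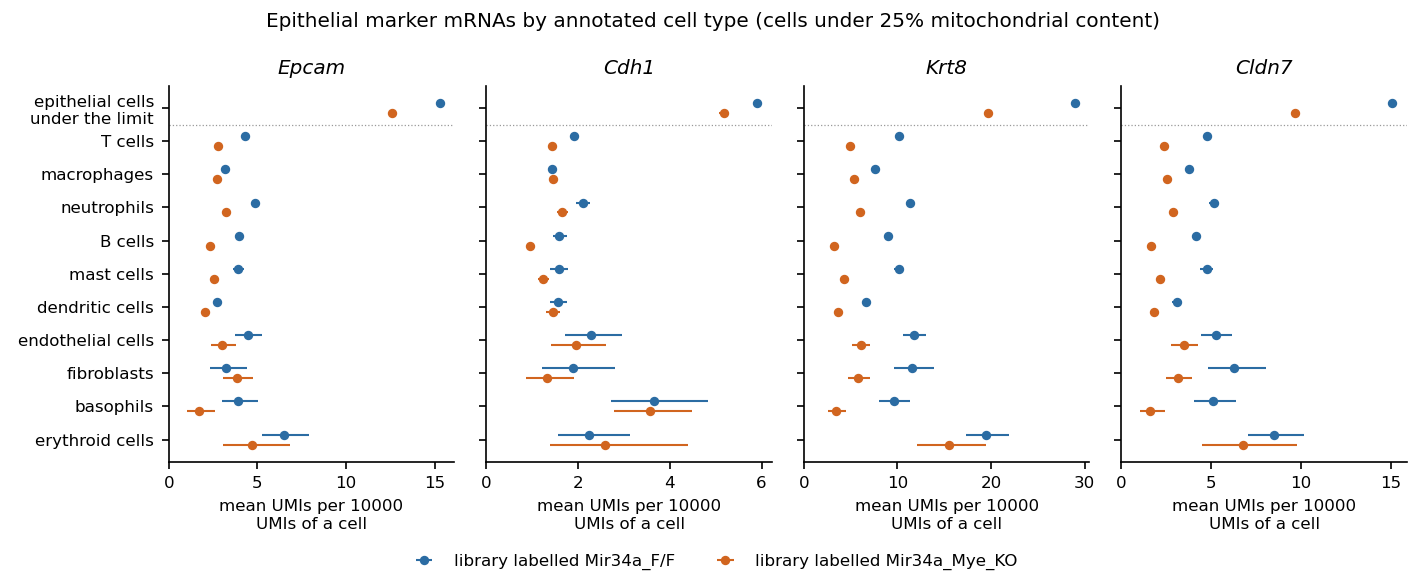
Levels of the 4 epithelial markers in the epithelial cells and in each of the 10 other cell types, by library, with 95% counting intervals. The epithelial cells hold the highest level in every panel, for Epcam at 15.3 and 12.6 against 4.28 and 2.77 in T cells.

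Of the 9635 genes whose level reached 0.1 in either library, 116 (1.2%) were at least 2-fold higher in the epithelial cells than in each of the 10 other types, in both libraries. Against only the 6 types with at least 300 cells, there were 1044 (10.8%). The annotation was made by clustering on these genes, so the counts describe the cells and test nothing. Among genes with a level of at least 1 in both libraries, the one with the highest ratio was Bglap3, at 1.74 and 1.64, which exceeded every other type at least 3.54-fold and 3.96-fold. Others of the 20 genes with the highest ratios follow. Tmprss2, a membrane serine protease of epithelia, was at 2.68 and 2.30, and exceeded every other type 2.67-fold and 3.20-fold. Ceacam1 and Ceacam20, adhesion molecules of the luminal membrane, were at 3.35 and 2.85 and at 1.79 and 1.46. Cxadr, a tight junction protein and virus receptor, was at 2.10 and 1.91.

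Ehf, an epithelial transcription factor of the ETS family among these 20 genes, was at 2.15 and 1.85, which was 2.55-fold and 3.06-fold above the highest other type. Nr3c2, the mineralocorticoid receptor through which aldosterone acts on the colon, was at 2.37 and 2.47. Esrp1, which directs epithelial forms of splicing, was at 1.21 and 1.18 with ratios of 3.02-fold and 2.34-fold. The acute-phase gene Saa1 was at 12.6 and 9.60, 2.68-fold and 3.68-fold above the highest other type, and the alpha-defensin Defa30 at 1.16 and 1.67. Alpha-defensin genes are near-identical copies, so reads may be split between them and their single levels are uncertain.

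The gene lists described next set these cells apart from the 6 larger types to very different degrees, beside 10.8% of all genes. Of 17 keratin and adhesion genes, 16 were at least 2-fold above each of these types in both libraries, and of 14 claudin and tight junction genes 12 were. All 11 goblet cell genes over the minimum were, as were 14 of 19 Wnt target and stem cell genes, 13 of 17 colonocyte genes, 11 of 15 intestinal transcription factors and 11 of 15 antimicrobial genes. In contrast, 3 of 12 genes of repairing or fetal-like epithelium and 1 of 13 cytokines and chemokines passed. None of the 16 genes of S phase and mitosis, 14 of glycolysis, 18 of the respiratory chain, 13 immediate-early genes or 11 heat shock genes did so. Against all 10 other types, beside 1.2% of all genes, far fewer passed. These were 1 of 17 keratin and adhesion genes, 1 of 14 claudin and tight junction genes and 2 of 11 goblet cell genes. They also included 2 of 19 Wnt genes, 4 of 17 colonocyte genes, 1 of 15 transcription factors and 5 of 15 antimicrobial genes.

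Summed levels showed what background these lists carried. The keratin and adhesion list summed to 106 and 85.3 in the epithelial cells and to 36.2 and 22.1 in T cells. The colonocyte list summed to 53.8 and 41.9 against 16.3 and 10.9 in T cells, and the antimicrobial list to 49.9 and 43.3 against 15 and 10.6. For the Wnt list the margin was narrower, 21.2 and 20.8 against 12.8 and 12.6. Its members Tcf7 and Lrig1 were higher in T cells than in the epithelial cells, so this T cell sum is not background alone. Neutrophils reached 20.4 and 25.9 on this list, to which Cd44, a hyaluronan receptor that leukocytes also use, contributed 13.3 and 20.7.

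The epithelial cells were described among themselves by their level of a list of colonocyte genes. For this, the cells of each library were ordered by the summed level of the colonocyte list (among others Krt20, Lypd8, Ceacam1 and Vil1) and divided into 10 groups of equal size. The list itself, which set the order, ran from 4.27 in the first group to 216 in the last in the library labelled Mir34a_F/F and from 4.80 to 159 in the library labelled Mir34a_Mye_KO. Among its members, Krt20, a keratin of surface colonocytes, ran from 0.0708 to 5.71 and from 0.0710 to 5.29. Lypd8, which keeps bacteria off the surface, ran from 1.90 to 158 and from 2.17 to 111. In the last group Lypd8 alone thus made up most of the sum, and in the fifth group of the library labelled Mir34a_F/F it made up 11.6 of 27.4. The order is thus in large part an order by Lypd8. Slc26a3, Aqp8 and Fabp2, genes of absorptive cells, reached only 0.0517, 0.053 and 0.0269 in the last group of that library.

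Wnt target and stem cell genes went the other way. Their sum was 35.5 in the first group and 6.37 in the last (log2 ratio −2.48) in the library labelled Mir34a_F/F, and 38.9 and 6.17 (−2.66) in the library labelled Mir34a_Mye_KO. Lgr5, the stem cell receptor for R-spondins, was at 1.45 in the first group and 0.0944 in the last, and at 2.20 and 0.0851. Notum, a secreted Wnt inhibitor that is itself a Wnt target, was at 2.80 and 0.211, and at 2.40 and 0.264. Sox9, a transcription factor of crypt progenitors, was lower in the last group by a smaller factor, at 2.13 against 0.844 and 1.59 against 0.502.

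Genes of DNA replication and mitosis were lowest in the last group. Their sum was 5.33, 10.5 and 1.98 in the first, the fourth and the last group of the library labelled Mir34a_F/F, and 6.64, 9.05 and 2.00 in the library labelled Mir34a_Mye_KO. Mki67, which marks cycling cells, followed the same course with 0.411, 1.81 and 0.154, and with 0.605, 1.67 and 0.191. The cells were also thinned to 1000 UMIs and ordered again, which left out 627 and 156 cells with fewer UMIs. The colonocyte list was then at 0 throughout the first group, so that depth and the makeup of the groups changed together. The sums in the first, the second and the fourth group were then 6.58, 8.19 and 8.96 in the library labelled Mir34a_F/F and 8.18, 8.73 and 8.44 in the library labelled Mir34a_Mye_KO, whose first groups thus lay close together. The last group stayed lowest, at 1.64 and 1.73.

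Vim and Fn1, genes of mesenchymal state, had their highest levels in the first group. Vim, an intermediate filament of mesenchymal cells, was at 4.41 in the first group and 0.401 in the last in the library labelled Mir34a_F/F, and at 3.71 and 0.443 in the library labelled Mir34a_Mye_KO. Fn1, the matrix protein fibronectin, was at 2.69 and 0.335, and at 2.58 and 0.301. Zeb1 and Zeb2, transcriptional repressors on the same list, did not share this course, and Zeb2 was at 0.352 in the first and 0.906 in the seventh group, and at 0.892 and 1.93. With cells thinned and ordered again in this way, the summed list was highest in the first group of the library labelled Mir34a_F/F, at 6.82, but in the third group of the library labelled Mir34a_Mye_KO, at 6.26 against 5.87 in the first. The growth factor gene Ptn was at 12.1 and 0.545, and at 6.11 and 0.273. The small heat shock protein gene Hspb1 was at 5.00 and 0.453, and at 2.29 and 0.227. Lcn2, the siderophore-binding antimicrobial protein, was at 4.63 and 0.308, and at 1.42 and 0.214, and so ran opposite to the summed antimicrobial list. The groups differed in depth, with medians of 14924 and 10204 UMIs in the first group, 4560 and 4025.5 in the fifth and 10012 and 15917 in the last. The summed endothelial markers were also highest in the first group of both libraries, at 0.417 there and 0.113 in the last group, and at 0.545 and 0.123, and their part in the course of Vim and Fn1 was not tested. The pan-leukocyte genes (Ptprc, Tyrobp, Laptm5 and Coro1a) did not move with Vim: their sum was 1.54 and 2.36 in the first group and highest, at 2.76 and 4.43, in the sixth and the seventh.

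Antimicrobial and interferon-stimulated genes were highest in the last group. The antimicrobial list summed to 12.6 and 156 in the first and the last group of the library labelled Mir34a_F/F, a log2 ratio of 3.63, and to 12.8 and 135 in the library labelled Mir34a_Mye_KO, a log2 ratio of 3.40. Saa1 went from 1.05 to 64.6 and from 1.49 to 52.9, and Dmbt1, a secreted scavenger protein that binds bacteria, from 1.95 to 52.2 and from 2.71 to 43.6. The interferon-stimulated list summed to 3.13 and 23.9, and to 3.62 and 25.9. Ifit1bl1 was at 0.121 in the first group and 6.01 in the last, and at 0.245 and 7.87. Ly6a, which encodes Sca-1 and marks regenerating epithelium, ran from 1.69 to 28.5 and from 1.27 to 18.1.

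The sum of the repair and fetal-like list followed S100a6, its most abundant member. The sum was 125 in the first, 71.1 in the fourth and 247 in the last group of the library labelled Mir34a_F/F. In the library labelled Mir34a_Mye_KO it was 80.2, 56.8 and 187. Of these sums, S100a6 alone made up 105, 49.0 and 174 and, in the library labelled Mir34a_Mye_KO, 65.6, 38.6 and 134. Ly6a, Anxa1 and Clu were highest in the last group, with Clu at 2.95 and 9.44 in the first and the last, and at 2.10 and 5.50. Goblet cell genes were highest in the ninth group, at 75.4 and 74.8, against 7.64 and 11.2 in the first and 43.2 and 61.3 in the last. Of 26 lists, 14 and 15 were higher in the last group than in the first. With cells thinned to 1000 UMIs before ordering, and those with fewer left out, 22 and 26 of the 26 lists kept their side of 0.

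**Figure D3:**
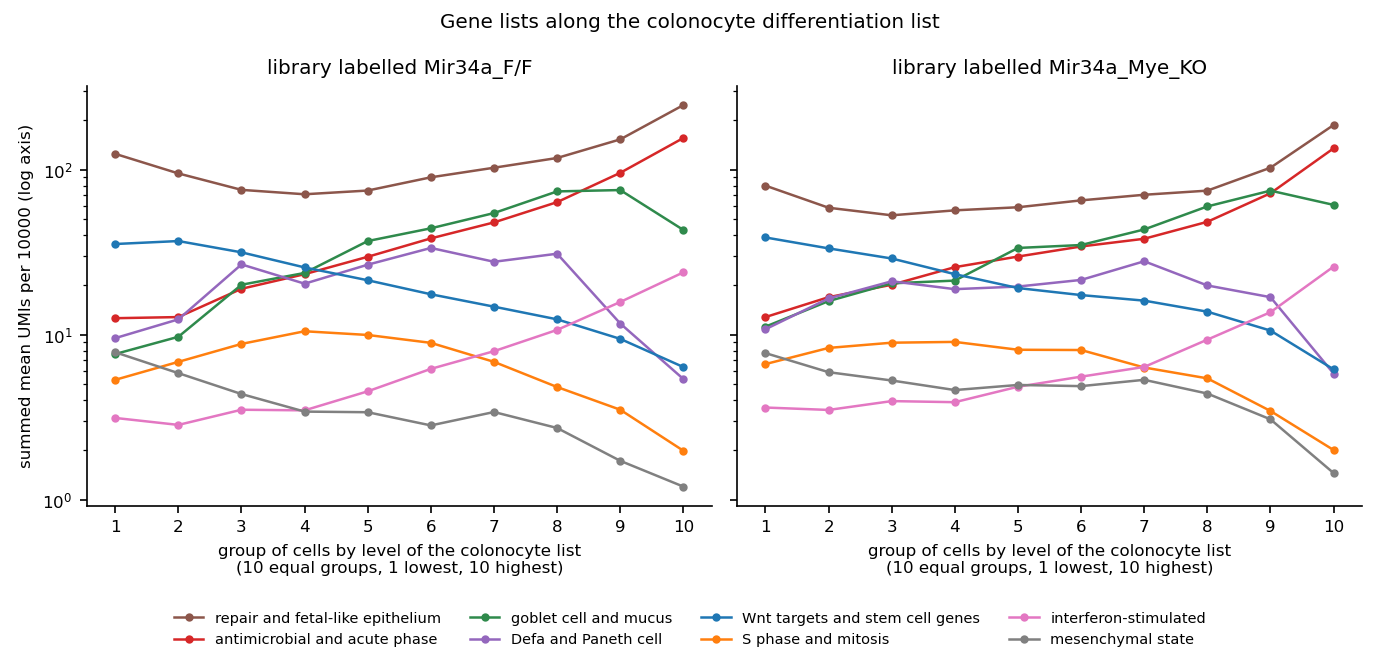
Summed levels of gene lists across 10 equal groups of the epithelial cells, ordered by the colonocyte list, in each library. Wnt genes run down from 35.5 to 6.37 and from 38.9 to 6.17, antimicrobial genes run up from 12.6 to 156 and from 12.8 to 135, and the S phase and mitosis list is lowest in the last group, at 1.98 and 2.00.

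Some transcripts sat in few cells. With cells thinned to 1000 UMIs and those with fewer left out, 8659 and 5884 cells remained. The 1% of these cells with the most UMIs of a gene held 4.99% and 5.28% of all Epcam UMIs and 4.84% and 5.43% of those of Krt8. The same share of cells held 54.6% and 39.9% of the UMIs of Muc2, the gel-forming mucin of goblet cells, and 60.2% and 48.2% of those of Tff3, a trefoil peptide secreted with it. For Zg16, a goblet cell lectin, the values were 82.9% and 62.3%. The antimicrobial lectin Reg3b was as concentrated, at 81.8% and 63.2%. For Defa24 they were 78.1% and 56.0% and for the Paneth cell lysozyme Lyz1 53.9% and 35.8%. The share was lower in the library labelled Mir34a_Mye_KO for each of these genes, but for another defensin gene, Defa30, it was 81.1% and 83.2%. The colonocyte keratin Krt20 and the stem cell gene Lgr5 lay between, at 18.6% and 21.7% and at 34.1% and 30.8%. The share also depends on how few cells hold any UMI of a gene. Muc2 was found in 10.1% and 17.2% of the thinned cells, Zg16 in 3.6% and 7%, Reg3b in 1.92% and 2.69% and Lgr5 in 5.47% and 6.2%. Zeb2, found in 3.9% and 10.2%, had shares of 32.5% and 18.8%. A high share of a sparsely detected gene thus does not by itself show restriction to special cells. Igkc, a product of plasma cells, was spread over many cells, with 14.9% and 8.34% of its UMIs in the top 1%.

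Between the libraries, 104 genes (1.08% of 9635) were at least 2-fold higher in the epithelial cells of the library labelled Mir34a_Mye_KO and 17 (0.176%) at least 2-fold lower. With UMIs summed over cells instead of averaged, the counts were 37 higher and 55 lower, and among cells with at least 2000 UMIs, with the minimum level applied anew, 30 higher and 18 lower. The median log2 ratio over all genes was −0.09, and 3135 of the 9635 genes were above 0, the background for the counts of list members above 0. Of the 104 higher genes, 28 stayed past 2-fold among cells with at least 2000 UMIs, whatever their level there, and all 104 stayed above 0. Of the 17 lower genes, 13 stayed past 2-fold. In T cells of the same libraries, 95 of the 104 and 16 of the 17 lay on the same side of 0. Past 2-fold in T cells, in the same direction, were 8 of the 104 and 8 of the 17. The same T cell counts were not made over all 9635 genes, so whether these shares are unusual is not known.

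Antibody genes made up 9 of the 104. The highest ratio of all was that of Ighg2c, a heavy chain, at 0.0610 and 0.946, a log2 ratio of 3.95 (3.63 to 4.29) and of 3.9 in cells with at least 2000 UMIs. Igkc was at 13.1 and 51.4 with a log2 ratio of 1.98 (1.96 to 2.00), 1.61 in cells with at least 2000 UMIs and 1.05 in T cells. Jchain, which links antibody chains for transport across the epithelium, was at 1.76 and 8.48 with a log2 ratio of 2.27, and 1.82 in deeper cells. In B cells, the annotated source of such transcripts, Igkc was at 785 and 1527. The immunoglobulin genes summed to 74.5 and 229 in epithelial cells with fewer than 2000 UMIs and to 23.8 and 69.0 in deeper ones.

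Other abundant transcripts differed in T cells as well. Gm42418, a locus that overlaps ribosomal RNA sequence, was at 369 and 881, a log2 ratio of 1.25 (1.25 to 1.26) in epithelial cells and 0.79 in T cells. In deeper epithelial cells it was 1.09, the lowest value over 8 alternative settings, of which the highest was 4.34. Lars2, the mitochondrial leucyl-tRNA synthetase, was at 8.43 and 21.1 with 1.32 in epithelial cells, 1.39 in deeper ones and 0.92 in T cells. Camk1d, a calcium-dependent kinase, was at 30.6 and 63.4 with 1.05 in epithelial cells, 1.02 in deeper ones and 0.64 in T cells. For Il31ra, the interleukin-31 receptor, the ratio was 1.28 (1.21 to 1.35) in epithelial cells, at levels of 0.910 and 2.20, and 0.29 in T cells. Among cells with at least 2000 UMIs the Il31ra ratio was 1.62, and so was larger without the shallow cells. In cells with fewer than 2000 UMIs its direction was reversed, at −0.43 (−0.75 to −0.10).

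MHC class II genes, which present antigen to T helper cells and can be induced in epithelium, were higher in the library labelled Mir34a_Mye_KO for all 6 measured members. Over all epithelial cells 3 of them were past 2-fold, and 0 of these 3 stayed past it among cells with at least 2000 UMIs. Their sum was 6.22 and 12.7, against 7.48 and 8.56 in T cells and 193 and 200 in dendritic cells. The sum was also higher in the library labelled Mir34a_Mye_KO in macrophages, at 97.1 and 153, and in erythroid cells, at 9.96 and 18.9. Endothelial cells, at 10.4 and 15.5, and mast cells, at 5.82 and 8.5, went the same way. In B cells the sum was lower, at 68.7 and 54.8. A higher sum was thus not particular to the epithelial cells. H2-Aa was at 0.920 and 2.29, a log2 ratio of 1.31 (1.23 to 1.40), and in deeper cells it was at 0.734 and 1.47, just under 2-fold, with 0.29 in T cells. H2-Ab1 was at 1.02 and 2.31, with 1.18 over all epithelial cells and 0.88 in deeper ones, and H2-Eb1 was at 0.779 and 1.74, with 1.16 and 0.87. The invariant chain Cd74 was at 3.19 and 5.84, a log2 ratio of 0.87 (0.83 to 0.92), with 0.55 and 0.08. Markers of some leukocytes, but not of all, were higher beside them. The macrophage list (6 of 7 genes higher) summed to 2.15 and 3.83, the mast cell list (5 of 5) to 5.73 and 10.9, and the pan-leukocyte list (4 of 4) to 2.08 and 3.34. In macrophages themselves the macrophage list summed to 45.4 and 53.6. The T cell list had a log2 ratio of 0.08 (−0.06 to 0.23) over all epithelial cells and of −0.18 (−0.29 to −0.07) in deeper ones. The neutrophil list summed to 10.6 and 13.3 over all epithelial cells. Within the depth classes it was nearly level, at 28.1 and 27.1 in cells with fewer than 2000 UMIs and 8.42 and 8.46 in deeper ones. By depth, the MHC class II sum was 15.1 and 24.8 in epithelial cells with fewer than 2000 UMIs and 5.11 and 8.38 in deeper ones, and the macrophage list went from 6.45 and 7.85 to 1.61 and 2.41. The part of leukocyte RNA in the MHC class II difference was not tested.

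Genes of mesenchymal state were at low levels. Zeb2, a repressor of Cdh1 that leukocytes also make, was at 0.527 and 1.2, a log2 ratio of 1.18 (1.06 to 1.31), with 0.92 in deeper epithelial cells and 0.55 in T cells. Zeb1, a related repressor, was at 0.286 and 0.513 with a log2 ratio of 0.85, and 0.57 in deeper cells. Macrophages held Zeb2 at 14.1 in the library labelled Mir34a_F/F, and T cells held Zeb1 at 11.2 and 14.7. Vim and Fn1, which belong to the same list, differed little, with log2 ratios of 0.21 and −0.08, which were −0.40 for Vim with UMIs summed over cells and 0.33 for Fn1 with the T cell level subtracted. The marker genes of fibroblasts summed to only 0.0468 and 0.175 in the epithelial cells. Nrg1, a ligand of the receptors Erbb3 and Erbb4, was at 0.114 and 0.252, a log2 ratio of 1.14 (0.88 to 1.40), which was 0.81 and no longer past 2-fold in deeper cells.

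**Figure D4:**
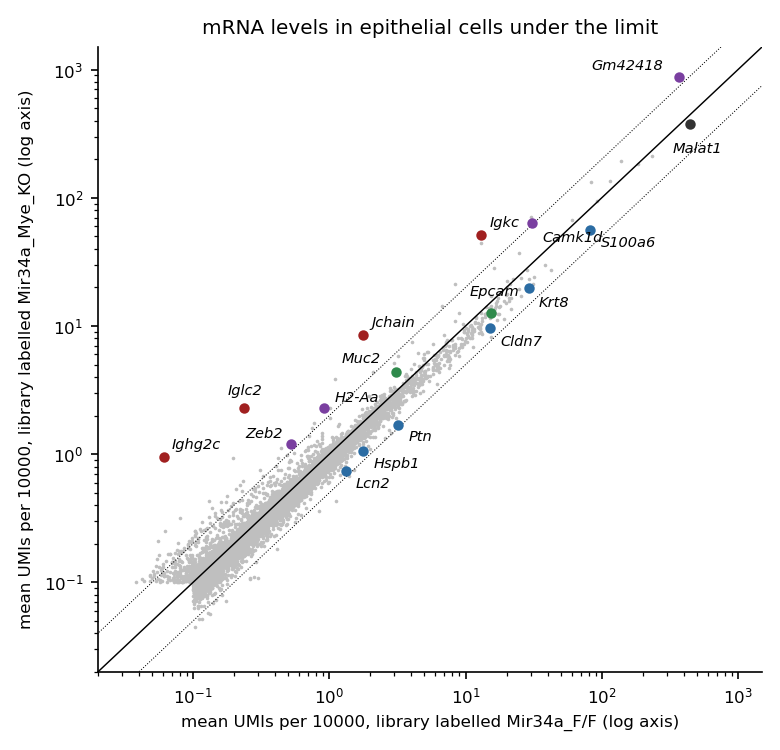
Level of each of 9635 genes in the epithelial cells of the 2 libraries, on log axes, with lines at equal level and at 2-fold. Marked points are genes named in the text and, besides them, Malat1 (442 and 375) and the antibody gene Iglc2 (0.238 and 2.3). Of the marked genes, Ighg2c, Igkc, Jchain and H2-Aa are among the 104 genes past the upper 2-fold line, whereas Krt8, Cldn7 and Lcn2 lie between the lines.

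The keratin, adhesion and claudin genes all differed by less than 2-fold, as did most genes. Over all 9635 genes, 1.08% were at least 2-fold higher and 0.176% at least 2-fold lower. Of 17 keratin and adhesion genes 1 had a higher level in the library labelled Mir34a_Mye_KO, and of 14 claudin and tight junction genes 0 did, with median log2 ratios of −0.21 and −0.24. Epcam had a log2 ratio of −0.28 (−0.30 to −0.26), Cdh1 one of −0.19 (−0.22 to −0.16), Krt8 one of −0.56 (−0.57 to −0.54) and Cldn7 one of −0.64 (−0.66 to −0.61). In T cells the same 4 genes had log2 ratios of −0.62, −0.42, −1.05 and −0.99, in the same direction and larger in size. Among deeper epithelial cells they were −0.18, −0.18, −0.51 and −0.59. The lower level of these transcripts in the library labelled Mir34a_Mye_KO was thus seen in the epithelial cells and in T cells alike. T cells differed in median depth between the libraries, at 3544 and 8007.5 UMIs, and the part of depth in their ratios was not tested. The size of the difference varied with the cell type. The keratin and adhesion list summed to 36.2 and 22.1 in T cells, but to 28.2 and 23.7 in macrophages and to 58.6 and 54.1 in erythroid cells.

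Wnt and stem cell genes as a list were close in level between the libraries, while colonocyte genes were mostly lower in the library labelled Mir34a_Mye_KO. The Wnt list had a median log2 ratio of −0.01, with 9 of 19 genes above 0, and Lgr5 was at 0.675 and 0.756, a log2 ratio of 0.16 (0.07 to 0.25) that was −0.07 over all annotated epithelial cells. Axin2, the feedback inhibitor of Wnt signaling, was at 1.62 and 1.66 (0.03, −0.03 to 0.09, but −0.17 over all annotated epithelial cells). Nkd1, another feedback inhibitor, was at 2.34 and 2.63 (0.17, but −0.05 over all annotated epithelial cells), and Sox9, in contrast, was at 1.65 and 1.17 (−0.49, −0.56 to −0.42), with −1.11 in T cells. By depth, the summed Wnt list had a log2 ratio of −0.32 (−0.39 to −0.24) in cells with fewer than 2000 UMIs and 0.04 (0.03 to 0.06) in deeper ones. In these 2 classes Lgr5 was at −0.32 and 0.29, Axin2 at −0.75 and 0.23 and Nkd1 at −0.41 and 0.32. Sox9 was below 0 in both, at −0.85 and −0.39. The S phase and mitosis list had a median of −0.02. Of 17 colonocyte genes 2 were above 0, with a median of −0.31, and the list summed to 53.8 and 41.9 (−0.36). Lypd8 was at 31.6 and 23.9 (−0.41), and Krt20 at 1.55 and 1.35 (−0.20, but 0.25 with UMIs summed over cells).

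The goblet cell list split. Muc2 was at 3.07 and 4.41, a log2 ratio of 0.52 (0.48 to 0.56), and its value was 0.65 in deeper epithelial cells and −0.13 in T cells. Fcgbp, which crosslinks the mucus, was at 1.18 and 1.71 (0.53), with 0.66 in deeper cells and −0.31 in T cells. Clca1, a mucus-processing protease, was at 0.474 and 0.702 (0.57), with 0.74 in deeper cells. In cells with fewer than 2000 UMIs the log2 ratios were −0.10 (−0.27 to 0.08) for Muc2, 0.05 (−0.26 to 0.36) for Fcgbp and −0.21 (−0.68 to 0.28) for Clca1. Spink4 and Reg4, secreted by goblet or enteroendocrine cells, went the other way, at 12.7 and 10.0 (−0.35) and at 1.63 and 1.30 (−0.33). Tff3 was at 4.95 and 5.63 (0.19, but −0.06 over all annotated epithelial cells). Chgb, a granin of enteroendocrine cells, was at 0.0628 and 0.254, a log2 ratio of 2.02 (1.81 to 2.22), from 439 and 1573 UMIs, and in T cells it was at 0.0124 and 0.00624. With cells thinned to 1000 UMIs its UMIs lay in 0.150% and 0.238% of the cells, and 1 cell held 49 of the 157 UMIs left in the library labelled Mir34a_Mye_KO, so the ratio rests on few cells and its interval does not cover their number.

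Repair and fetal-like genes were mostly lower in the library labelled Mir34a_Mye_KO. Of 12 repair and fetal-like genes 1 was above 0, with a median log2 ratio of −0.45 and sums of 115 and 80.9. In T cells the sums were 46.2 and 27.5, with the same library lower. S100a6, a calcium-binding protein, was at 82.4 and 56.1 (−0.55), with −0.86 in T cells. Ly6a was at 7.71 and 4.99 (−0.63, −0.66 to −0.60), with −0.33 in T cells, and −0.62 in deeper epithelial cells. Clu, the chaperone clusterin, was at 4.25 and 2.91 (−0.55), and Anxa1, an anti-inflammatory annexin, at 5.48 and 4.10 (−0.42).

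Of 15 antimicrobial and acute-phase genes 3 were above 0, with a median of −0.19 that was 0.17 with UMIs summed over cells. Lcn2 was at 1.32 and 0.738, a log2 ratio of −0.84 (−0.93 to −0.75), with −1.09 in deeper epithelial cells and −0.71 in T cells. In neutrophils, where it is stored in granules, Lcn2 was at 21.9 and 14.7. Saa3 was the 1 gene of the list past 2-fold, at 0.111 and 0.0520. Saa1 was at 12.6 and 9.60 (−0.39) and Dmbt1 at 16.1 and 13.3 (−0.28), and with UMIs summed over cells these ratios were 0.26 and 0.08. Pigr, the receptor that carries antibodies across the epithelium, was at 9.57 and 10.4 (0.12, 0.09 to 0.14). Ptn was at 3.18 and 1.70 (−0.91) with −0.96 in T cells, Hspb1 at 1.76 and 1.05 (−0.74) with −0.82, and the milk fat globule protein gene Mfge8 at 0.616 and 0.333 (−0.89) with −1.77, so that with the T cell level subtracted its ratio was 1.05. In the first group of the colonocyte order, where Lcn2, Ptn and Hspb1 were highest, their levels in the library labelled Mir34a_Mye_KO were also the lower ones.

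Interferon-stimulated genes showed no common direction, and the housekeeping lists were lower in the same library in T cells too. Of 14 interferon-stimulated genes 8 were above 0, with a median of 0.03. Ifit2, which binds viral RNA, was at 0.164 and 0.278 (0.77), while Ifi27l2b was at 1.30 and 0.815 (−0.68). The glycolysis list had 0 of 14 genes above 0 (median −0.20), the nuclear-encoded respiratory chain 1 of 18 (−0.30) and the cytosolic ribosomal proteins 0 of 80 (−0.26). Their summed levels differed in T cells by log2 ratios of −0.24, −0.41 and −0.41. T cells held the ribosomal proteins at 1576 and 1189, above the 1069 and 876 of the epithelial cells. For these housekeeping lists the T cell level is therefore not a background. Targets of p53, the transcription factor that induces Mir34a, had a median of −0.03 with 6 of 13 genes above 0.

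**Figure D5:**
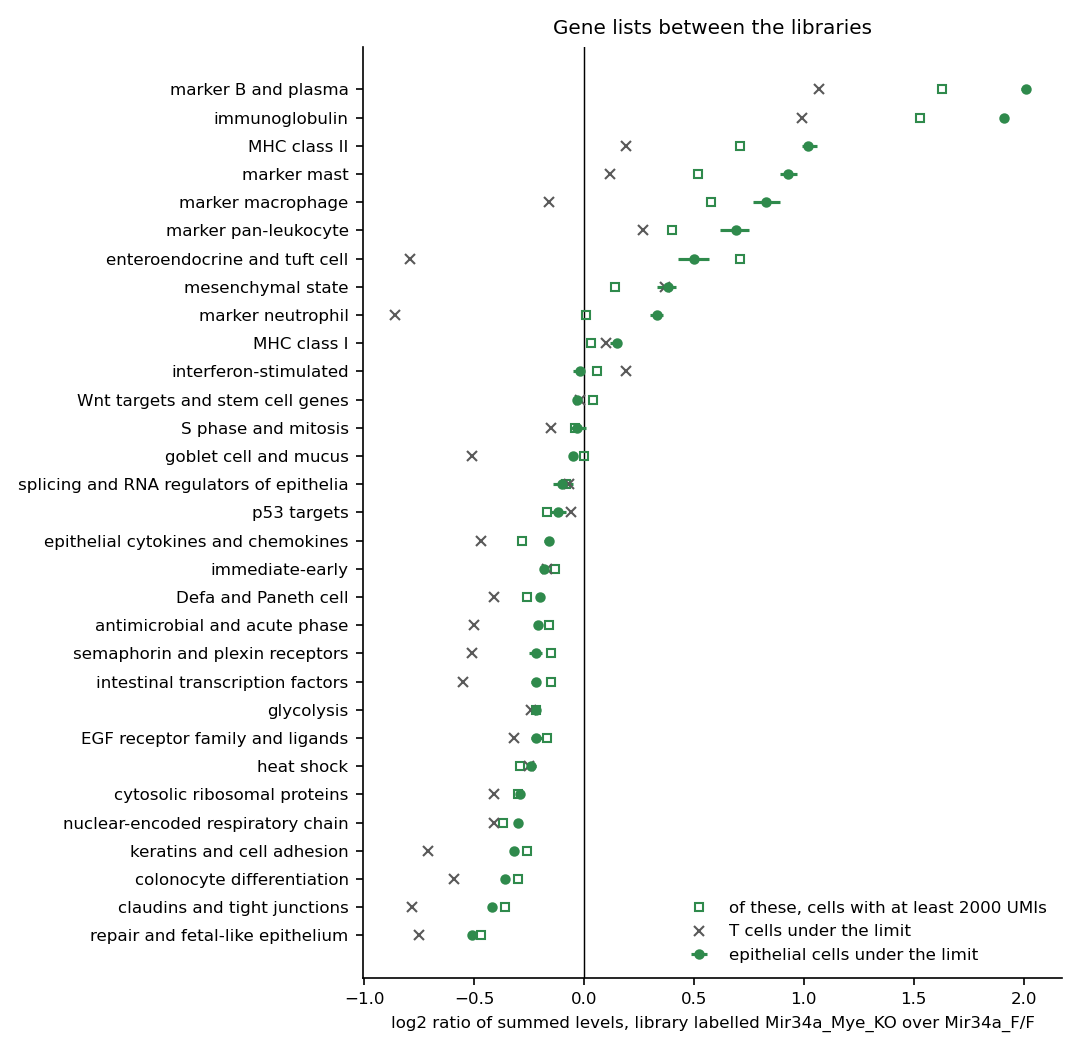
Log2 ratio of the summed level of each gene list between the libraries, in the epithelial cells (filled circles, with 95% counting intervals), in those with at least 2000 UMIs (open squares) and in T cells (crosses). The MHC class II list lies to the right at 1.02, the Wnt list at −0.03 and the repair and fetal-like list to the left at −0.51, where T cells lie at −0.75.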

How the data were processed

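Single-cell suspensions of pooled tumors were sequenced as droplet libraries with a 3′ kit. Per the labels and the study's methods, reads were aligned and UMIs counted with Cell Ranger 7.2.0 on mm10, doublets were removed with Scrublet, cells above a mitochondrial limit were to be removed, and counts were scaled per cell with Seurat. The deposited table still held cells above the 25% limit. Its values are the natural log of 1 + UMIs per 10000, as the authors normalized them, and cell types and libraries were taken from the deposited annotation. Undoing the log gave sums of 10000 in every cell, and UMI counts recovered as whole numbers within 1.5e-10.

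Levels were averaged over cells with Python 3.11.15, numpy 2.4.6 and scipy 1.17.1, and genes whose level reached 0.1 in either library were kept (9635). Intervals at 95% came from effective counts (Clopper-Pearson for ratios, exact binomial for shares) and cover counting error only. With 1 library per genotype no p-value was computed. On simulated counts for the comparison between the libraries, 95.8% of intervals over the 9635 genes held the true ratio. These counts were drawn independently at 1 level per gene, as the intervals assume, so this checks the calculation only. It does not cover the spread among real cells, where the thinned variance of Defa24 was 140 and 82.1 times its mean.

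The cells, gene lists and comparisons were chosen with earlier results of these data known, and the comparison with the 6 larger types and the genes reported past the stated rule after their values were seen. Genes named were the 4 markers, list members, the 20 with the highest ratio to the highest other cell type among genes with a level of at least 1 in both libraries, the 12 most different ones each way among those detected in 25% of cells (of these, ribosomal RNA-like, antibody and unnamed loci are given in part), the 10 with the highest level and the 15 with the highest variance relative to the mean. Alternatives were summed UMIs, thinning to 1000 UMIs, limits of 10% mitochondrial content or none, a minimum of 2000 UMIs, totals without mitochondrial and immunoglobulin genes, subtraction of the T cell level, a pseudocount of 0.1 and other minimum levels. Thinning left out cells with fewer than 1000 UMIs.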

Additional observations from a re-analysis of the deposited data

How the results depend on the processing

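The counts of genes past 2-fold between the libraries, 104 higher and 17 lower, moved with most settings. They were 37 and 55 with summed UMIs, 180 and 27 with cells thinned to 1000 UMIs, 215 and 54 under a 10% mitochondrial limit, 32 and 39 over all annotated epithelial cells, 213 and 150 with the T cell level subtracted, 29 and 2 with 0.1 added to both means, 28 and 3 with a minimum mean of 0.5 and 1992 and 2385 with none. With at least 2000 UMIs per cell 30 were higher and 18 lower when the minimum level was applied anew in these cells, and 26 of the 30 were among the 104 and 12 of the 18 among the 17. The 116 genes 2-fold above every other type became 194 with at least 2000 UMIs, 51 with 0.1 added, 67 with a minimum mean of 0.5, 825 with none and, in a comparison chosen after seeing the data, 1044 against the 6 larger types. The share of epithelial cells under the limit, 80.0% and 61.2%, was 46.6% and 36.0% under 10%, and 84.4% and 54.0% among cells with at least 2000 UMIs. The median over all genes shifted by −0.14 over all annotated epithelial cells and by 0.12 with the T cell level subtracted. Among the lists whose members all lay on 1 side of 0, the medians that crossed it were these: enteroendocrine genes were at −0.08 over all annotated epithelial cells, semaphorin and plexin receptors at 0.06 with summed UMIs and 0.08 with the T cell level subtracted, glycolysis at 0.15 with that level subtracted, T cell markers at −0.04 with at least 2000 UMIs, and erythroid markers at 0.87 with summed UMIs and 0.16 with at least 2000 UMIs. Of the other list medians, those of heat shock (0.36), S phase and mitosis (0.34), p53 targets (0.23), cytokines (0.19), the respiratory chain (0.16), Wnt genes (0.16) and transcription factors (0.01) also became positive with the T cell level subtracted. Heat shock genes summed to 53.9 and 45.4 in T cells against 49.4 and 41.9 in the epithelial cells. For lists that T cells express themselves, the subtraction thus removes more than a background. Summed UMIs made transcription factors (0.09) and antimicrobial genes (0.17) positive, a 10% limit made goblet (−0.14) and interferon-stimulated genes (−0.07) negative and S phase and mitosis (0.16) and p53 targets (0.05) positive, all annotated epithelial cells made goblet (−0.06) and interferon-stimulated genes (−0.03) negative, thinning made S phase and mitosis (0.11) and p53 targets (0.08) positive, and Wnt genes were at 0.09 with at least 2000 UMIs and 0.02 with totals without mitochondrial and immunoglobulin genes. Among named genes, summed UMIs turned Dmbt1 (0.08), Krt20 (0.25), Saa1 (0.26) and Vim (−0.40). The T cell level subtracted turned Fn1 (0.33) and Mfge8 (1.05), a 10% limit turned Lgr5 (−0.06), and all annotated epithelial cells turned Axin2 (−0.17), Lgr5 (−0.07), Nkd1 (−0.05), Tff3 (−0.06) and Vim (−0.01). The cause was not tested. No paired analysis was possible because each genotype has 1 library, and for the same reason no library could be left out.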

Other observations

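Transcripts of leukocytes were counted in the epithelial cells of both libraries, more of them in shallow cells. The pan-leukocyte genes summed to 6.36 and 7.02 in epithelial cells with fewer than 2000 UMIs and to 1.54 and 2.04 in deeper ones, against 18.5 and 22.2 in T cells. T cell markers summed to 0.519 and 0.550 over all epithelial cells, against 18.9 and 17.9 in T cells. Neutrophil markers summed to 10.6 and 13.3 over all epithelial cells, and the 1% of cells with the most S100a9 UMIs held 36.4% and 43.3% of them.

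The epithelial cells above the mitochondrial limit differed from those below it in many gene groups when levels were taken per 10000 UMIs that were not mitochondrial. Lgr5 was at 0.730 in the cells below the limit and 0.403 in those above it in the library labelled Mir34a_F/F, and at 0.837 and 0.441 in the library labelled Mir34a_Mye_KO. Epcam, by the same measure, was at 17.0 and 14.4, and at 14.3 and 14.1. The whole Wnt list was higher below the limit by log2 ratios of 0.22 and 0.35, and the antimicrobial list lower, at −0.13 and −0.35. The Defa and Paneth cell list was higher below the limit, at 0.42 and 0.58. Immunoglobulin genes were at −0.82 and −0.15, macrophage markers at −0.93 and −0.21, and MHC class II genes at −0.75 and −0.13. Markers of other cells did not share 1 direction. Neutrophil markers were at −0.58 and 0.21, erythroid markers at 0.29 and 2.10, and endothelial markers at −0.00 and 0.11, with intervals that held 0. The pan-leukocyte genes were at −0.80 and −0.04, the latter with an interval of −0.11 to 0.03. Median depth was 6431 UMIs below the limit and 2562 above it in the library labelled Mir34a_F/F, and 6571 and 6713 in the library labelled Mir34a_Mye_KO. The part of depth and of RNA from other cells in these differences was not tested.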
